A study of Homo sapiens with 8 samples.

Results

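This report describes 9 genes of the p53 axis and the cyclin G family (MDM2, MDM4, CCNG1, CCNG2, DDB2, SESN1, PPM1D, XPC and ZMAT3) in MOLM-13, a human acute myeloid leukemia cell line, after knockdown (KD) of PTBP1. The 9 genes were chosen by name, with their change in this experiment already known, out of 62639 annotated genes with transcripts in the table, and they carry 118 of its 254070 transcripts. Their values in the contrast of KD against control are therefore given as a description and without a p value. RNA was taken from 4 cultures labelled shPTBP1 and 4 labelled shControl, which the study calls shSCR, all after 9 days of doxycycline (dox). The vector was lentiviral in both groups. It marks carrier cells with mCherry at all times, whereas its shRNA and a surface marker, the truncated receptor ΔLNGFR, depend on dox. The shPTBP1 cells expressed an shRNA against PTBP1 and the shControl cells a scrambled shRNA. Each group rests on 1 shRNA sequence, so that loss of PTBP1 and other differences between the cells that carry these vectors cannot be told apart. In bulk RNA, fewer cells expressing a gene and less RNA per cell cannot be told apart either.

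p53 is a transcription factor that is kept low in unstressed cells and that, when active, raises genes for cell cycle arrest, DNA repair and cell death. MDM2 is a ubiquitin ligase that marks p53 for degradation and is itself a p53 target, which closes a feedback loop, and MDM4 binds p53 and blocks its activity. PTBP1 is an RNA-binding protein that binds pyrimidine-rich RNA and is best known for repressing the inclusion of exons.

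The libraries were nanopore cDNA reads, which the authors had counted per annotated transcript. Each held between 1528449 and 1613342 counts, with 12322 to 12589 genes detected. Levels are given as normalized CPM, the counts of all transcripts of a gene per 1000000 counts of the library after scaling by the TMM method. CPM is not divided by length, so levels of different genes are not compared. PTBP1, the targeted gene, was at 9.88 ± 3.55 CPM in shPTBP1 and 47.5 ± 7.81 in shControl (mean ± SD, n = 4 in each), with no overlap, a log2 fold change of -2.26 (SE 0.22). Of 9 markers of myeloid leukemia cells, 6 passed the filter on low counts and none was called changed by edgeR, DESeq2 or limma-voom (2 had an unadjusted p under 0.05). LYZ, which encodes lysozyme, was called without the filter and when shPTBP1 replicate 1 was left out. The summed level of the 9 markers was 554 to 685 CPM in shPTBP1 and 518 to 551 in shControl, without overlap, and its part in the results was not tested. The largest term of the sum was LYZ, at 345 ± 60.7 CPM in shPTBP1 and 274 ± 25.4 in shControl. CD33, MPO and PTPRC also had the higher mean in shPTBP1. CSF3R (77.4 against 88.3 CPM) and HOXA9 (56.2 against 59.7) had the lower mean in shPTBP1. FLT3 and MEIS1 fell under the filter, and SPI1, a defining myeloid transcription factor, had 1 count in all 8 libraries together. Of 10 markers of other cell types, PECAM1 alone passed the filter, the summed level was 33.5 to 44.3 CPM against 37.6 to 46.7, and CD3E was at 0.

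Of the 9 genes, CCNG1 and DDB2 were lower after PTBP1 KD and none was called higher. Calls were made where edgeR's quasi-likelihood test gave an adjusted p (Benjamini-Hochberg) under 0.05 across 7597 genes, of which 5.54% were called in either direction, 3.19% lower and 2.36% higher. MDM2, MDM4 and XPC were tested and not called. CCNG2, SESN1, PPM1D and ZMAT3 had too few counts to be tested. Because the members were chosen with this contrast known, nothing is read from the count of calls among them. For the markers and for each list the number of genes with an unadjusted p under 0.05 is also given. The share of all genes tested that reached it was not counted, so nothing is read from these numbers either.

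**Figure D1:**
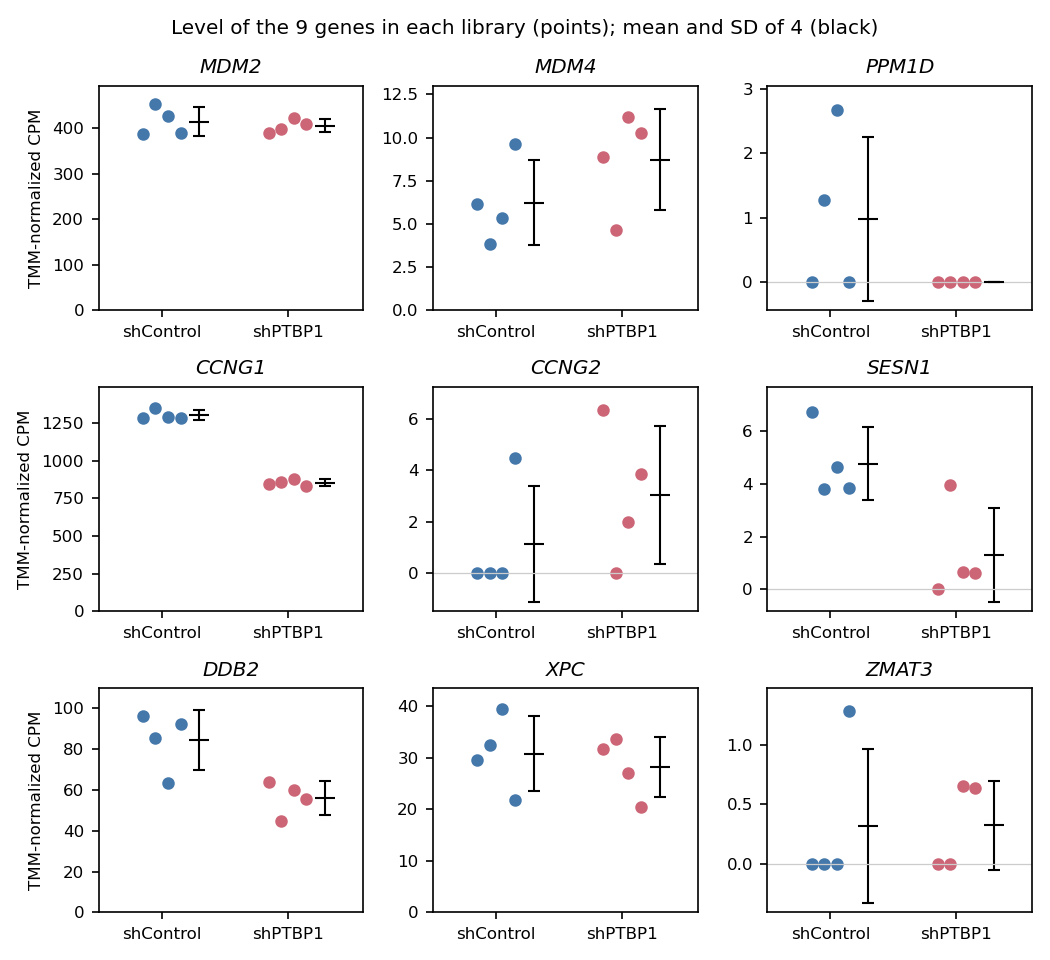
Level of each of the 9 genes in every library, in normalized CPM on an axis of its own for each gene. Points are the 4 shPTBP1 and 4 shControl libraries, and lines give the mean and SD of each group; CCNG1 lies between 829 and 880 in shPTBP1 and between 1280.0 and 1351 in shControl, while the groups of DDB2 meet at about 63 to 64.

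CCNG1 encodes cyclin G1, a p53 target that recruits the phosphatase PP2A and acts on MDM2. The gene (ENSG00000113328) lies on the plus strand at chr5:163437569-163446151 (GRCh38). Its level was 846, 859, 880 and 829 CPM in shPTBP1 replicates 1 to 4, from 1295 to 1337 counts. In shControl replicates 1 to 4 it was 1280.0, 1351, 1288 and 1282 CPM, from 1932 to 2122 counts. All 4 shPTBP1 libraries lay below all 4 shControl libraries, as was the case in one direction or the other for 12.7% of the genes tested. The means were 853 ± 21.3 and 1300.4 ± 34.0 CPM, a 1.52-fold lower level in shPTBP1 (log2 fold change -0.61, SE 0.05). Of the 7597 genes tested, 353 had a lower log2 fold change than CCNG1.

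Almost all of CCNG1 was counted on 1 transcript. CCNG1-201 (ENST00000340828), with 7 exons, took 99.4% ± 0.129 of the gene's counts in shPTBP1 and 99.4% ± 0.193 in shControl. CCNG1-203, in which the second exon runs 82 bases into the next intron, took 0.321% ± 0.152 and 0.442% ± 0.171. The lower level of CCNG1 was thus a lower level of CCNG1-201, and no shift between its isoforms larger than the SD of the shares was seen. No second transcript of CCNG1 had enough counts for a test of isoform usage.

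CCNG2 encodes cyclin G2, the closest relative of cyclin G1, which is linked to exit from the cell cycle. It lies on the plus strand at chr4:77157207-77433388. Its counts were 10, 0, 3 and 6 in shPTBP1 and 0, 0, 0 and 7 in shControl. The groups overlapped, and 4 of the 8 libraries held no count. The summed counts were 19 and 7, a ratio of 2.75 after scaling for depth with an exact 95% interval of 1.11 to 7.74 that covers counting error only. All 7 shControl counts were in replicate 4, so the ratio does not hold the spread between libraries, and the depth was too low for a test.

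The partners of cyclin G1 were read from a list of 14 genes that holds the cyclins G, GAK, CDK5 and subunits of PP2A. Of 11 tested, 2 were called lower (CCNG1 and PPP2CA) and none higher, where 3.19% of all genes were called lower. Without the members it was 1 of 10. The list had a median log2 fold change of -0.21, and the median over all genes tested was 0.00. An unadjusted p under 0.05 was reached by 4 of them, with the share of all genes not counted. PPP2CA encodes the main catalytic subunit of PP2A. It was at 75.3, 86.5, 86.9 and 135 CPM in shPTBP1 and at 147, 147, 132 and 154 in shControl. Replicate 4 of shPTBP1 lay inside the shControl range and the other 3 lay below it. The log2 fold change of PPP2CA was -0.60 (SE 0.14, adjusted p = 0.0299 in edgeR). That call was lost in 6 of 8 fits that left out 1 library (shPTBP1 replicate 1, 2 or 3, or shControl replicate 1, 2 or 4), with adjusted p values up to 0.108.

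MDM2 (ENSG00000135679) lies on the plus strand at chr12:68808177-68845544. Its level was 389, 399, 423 and 410 CPM in shPTBP1 and 388, 453, 427 and 389 in shControl, from 604 to 711 counts per library. The shPTBP1 values all fell within the shControl range. The means were 405 ± 14.7 and 414 ± 31.2 CPM, and the log2 fold change was -0.03 (SE 0.07). MDM2-202 (ENST00000258149), which has 11 exons, carried 99.0% ± 0.874 of the counts in shPTBP1 and 99.3% ± 0.439 in shControl. MDM2-224, which begins at a first exon further downstream, had 6, 0, 11 and 0 counts in shPTBP1 and 7, 3, 6 and 0 in shControl. Those few counts from the other first exon overlapped between the groups. MDM2-230 had 2, 1, 0 and 2 counts in shPTBP1 and none in shControl, a share of 0.201% ± 0.152 of the gene in shPTBP1. The level of MDM2 and the share of MDM2-202 differed by less than the spread between libraries.

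MDM4 (ENSG00000198625) lies on the plus strand at chr1:204516379-204558120 and was counted at a low depth of 6 to 17 counts per library. Its level was 8.86, 4.62, 11.2 and 10.2 CPM in shPTBP1 and 6.14, 3.82, 5.33 and 9.62 in shControl. The groups overlapped, with means of 8.73 ± 2.90 and 6.23 ± 2.46 CPM and a log2 fold change of 0.48 (SE 0.36) that was not called. The counts were divided differently over the forms of exon 6. Full-length MDM4 contains this exon, and transcripts that skip it shift the reading frame and encode a shortened protein known as MDM4-S. The end of the intron before it and the exon itself are printed here because 3 forms of the transcript differ at this place (GRCh38 genome sequence, plus strand, 5′ to 3′).

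MDM4 intron 5, last 100 bases, chr1:204537330-204537429, with the AG of the acceptor site in capitals: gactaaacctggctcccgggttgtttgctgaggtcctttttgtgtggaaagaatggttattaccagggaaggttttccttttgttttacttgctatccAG
MDM4 exon 6, chr1:204537430-204537497, with the 39 bases that MDM4-209 keeps in capitals: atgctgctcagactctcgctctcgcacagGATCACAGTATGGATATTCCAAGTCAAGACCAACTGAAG

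The whole exon has 68 bases. In MDM4-209 it starts 29 bases further downstream, and the 29 bases left out, printed in lower case, end in ag. Neither 68 nor 29 is a multiple of 3. The motifs TCTT and CTCTCT, searched on the gene's strand only as letters that PTBP1 is known to bind, are not in these last 100 bases of intron 5 or in exon 6. Among 155863 windows of the same length before internal exons, 62.2% hold TCTT and 9.00% hold CTCTCT. C and T made up 58.0% of the last 50 bases of intron 5, where the median window had 60.0%.

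**Figure D2:**
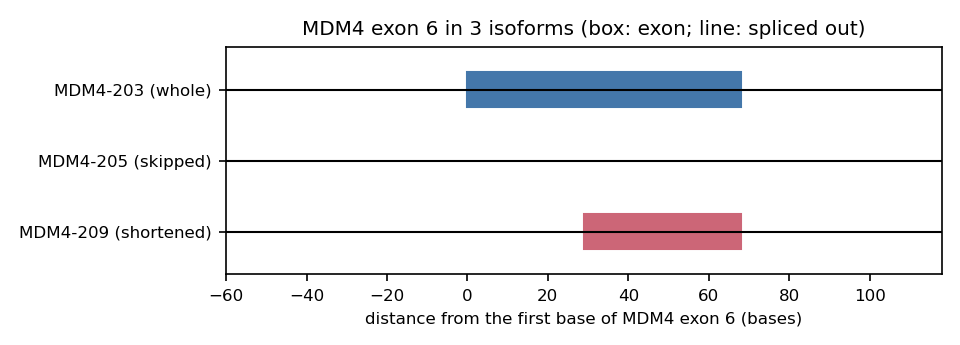
Exon 6 of MDM4 in 3 annotated transcripts, with the distance in bases from the first base of exon 6 on the x axis. MDM4-203 holds the whole exon of 68 bases, MDM4-209 its last 39 bases and MDM4-205 none of it. Only exon 6 and its surroundings are drawn, and MDM4-209 also differs at its 3′ end.

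MDM4-203 (ENST00000367182), the full-length transcript with 11 exons, had 0, 1, 2 and 5 counts in shPTBP1 and 5, 4, 5 and 12 in shControl. MDM4-205 (ENST00000391947), which skips exon 6, had 5, 6, 6 and 1 counts in shPTBP1 and 4, 2, 3 and 1 in shControl. MDM4-209 (ENST00000463049), with the shortened exon and no coding sequence defined in the annotation, had 8, 0, 9 and 8 counts in shPTBP1 and none in the 4 shControl libraries. The full-length form led in shControl, whereas in shPTBP1 most counts were on the other 2 forms.

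The counts of transcripts that run from exon 5 to exon 7 were then grouped by the annotated form of exon 6, 53 counts in shPTBP1 and 37 in shControl. Transcripts annotated with the whole exon took 7.14%, 14.3%, 11.8% and 40.0% of these counts in shPTBP1 and 60.0%, 66.7%, 62.5% and 92.3% in shControl. The groups did not overlap, with means of 18.3% ± 14.8 and 70.4% ± 14.9. How often the shares of other transcripts did not overlap was not counted, so nothing is read from the lack of overlap. Pooled over the libraries, the transcripts with the whole exon took 10 of 53 counts (18.9%, exact 95% interval 9.44 to 32.0%) and 27 of 37 counts (73.0%, 55.9 to 86.2%). The shortened exon took 25 of 53 counts (47.2%, 33.3 to 61.4%) in shPTBP1 and 0 of 37 in shControl (exact 95% interval up to 9.49%, or 8.11% by the floor of 3 counts). It was at 0 in shPTBP1 replicate 2 and above 50% in the other 3. Skipping took 40.8% ± 32.9 of the counts in shPTBP1 and 29.6% ± 14.9 in shControl, a difference smaller than the spread between libraries.

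The lower share of the whole exon depended on the counts given to MDM4-209. With this transcript left out, a choice made after seeing the data, the whole exon took 35.4% (14.3 to 85.7%) in shPTBP1 and 70.4% (60.0 to 92.3%) in shControl, and the groups overlapped. No MDM4 transcript passed the filter of the isoform test, so the shares were not tested, and the intervals cover counting error only. Counts were given per annotated transcript, and the reads over exon 6 were not examined. MDM4-203 and MDM4-205 are 10050 and 10008 bases long and end at almost the same base. How reads that did not reach exon 6 were divided between them was not measured. MDM4-209 also ends earlier, at chr1:204554201, than MDM4-203 (204558120) and MDM4-205 (204558119). Its counts can therefore not be tied to the form of exon 6 alone.

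PPM1D, which lies at chr17:60600193-60666280 on the plus strand, encodes a p53-induced phosphatase that dampens p53 signalling. It had 0 counts in all 4 shPTBP1 libraries and 0, 2, 4 and 0 in shControl. The summed counts were 0 and 6, and 2 of the 4 shControl libraries were at 0 as well. At this depth a difference between the groups was not detectable.

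Of 24 regulators and partners of p53, among them MDM2, MDM4 and PPM1D, 14 were tested. None was called by edgeR in either direction, and the median log2 fold change was 0.04. An unadjusted p under 0.05 in edgeR was found for 4, with the share of all genes not counted. DESeq2 called 1 of them higher and limma-voom 1 lower.

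DDB2 encodes the smaller subunit of the complex that recognises ultraviolet damage in DNA and is a direct p53 target. The gene (ENSG00000134574) lies on the plus strand at chr11:47214465-47239217. Its level was 63.9, 44.9, 59.9 and 55.7 CPM in shPTBP1, from 68 to 101 counts, and 96.5, 85.3, 63.4 and 92.4 CPM in shControl, from 95 to 157 counts. Replicate 3 of shControl lay just under replicate 1 of shPTBP1, and the other 3 shControl libraries lay above all shPTBP1 libraries. The means were 56.1 ± 8.17 and 84.4 ± 14.8 CPM (log2 fold change -0.59, SE 0.14). The call was lost without shPTBP1 replicate 2, 3 or 4 and without shControl replicate 1, 2 or 4, with log2 fold changes of -0.62 to -0.50.

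DDB2 was counted on a full-length and a short transcript. DDB2-201 (ENST00000256996), with 10 exons, took 74.4% ± 16.1 of the counts in shPTBP1 and 65.9% ± 3.65 in shControl. DDB2-209 (ENST00000614884), annotated as a retained intron, took 24.4% ± 16.3 and 30.8% ± 4.95. It begins 31 bases before exon 8, in the end of intron 7, and 629 of its 660 bases lie in exons of DDB2-201. These 31 bases, chr11:47237806-47237836 on the plus strand, are the part of DDB2-209 outside the exons of DDB2-201. Other DDB2 transcripts were not checked for them. They are printed with the AG of the acceptor site in capitals.

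DDB2 intron 7, last 31 bases: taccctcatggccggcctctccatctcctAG

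DDB2-209 had 34, 0, 29 and 28 counts in shPTBP1 and 56, 32, 30 and 46 in shControl. In shPTBP1 replicate 2 it was at 0 and DDB2-201 took 98.5% of the gene, while in the other 3 DDB2-201 took 65.3 to 67.8%. Of all transcripts with at least 20 counts in 7 libraries, 3 to 7 per library were at 0 in the remaining one, 6 of them in this library. Counted alone, a choice made after seeing the data, DDB2-201 was at 40.8 ± 2.81 CPM in shPTBP1 and 55.6 ± 9.94 in shControl. That is 1.36-fold lower, with a log2 ratio of -0.45, and the highest shPTBP1 library (44.3) lay above the lowest shControl library (40.7). DDB2-201 and DDB2-209 were the only member transcripts in the test of isoform usage, and neither was called, beside 1.12% of the 5464 transcripts tested.

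**Figure D3:**
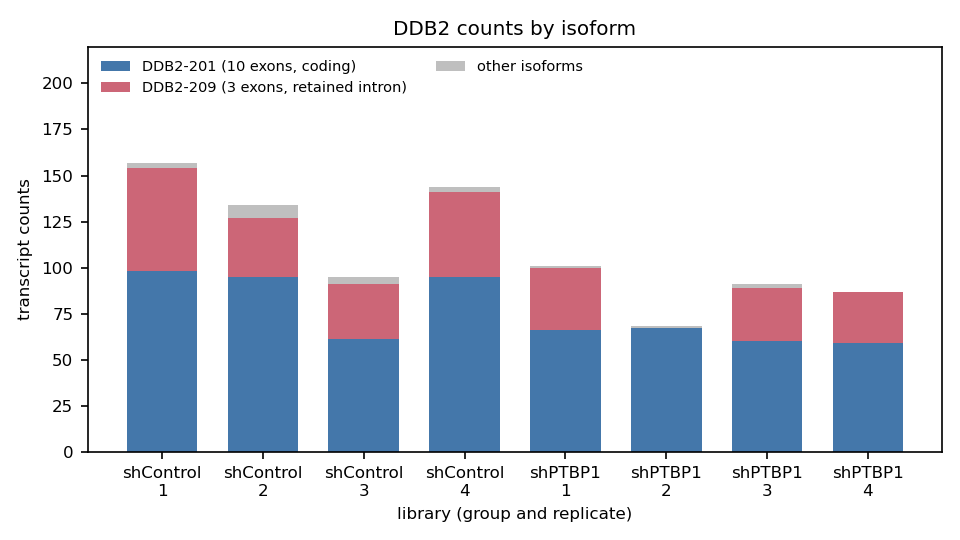
Counts of DDB2 transcripts in each library, stacked by transcript. DDB2-201 fills 59 to 67 counts in shPTBP1 and 61 to 98 in shControl, and DDB2-209 is at 0 in shPTBP1 replicate 2 but between 28 and 56 in the other libraries.

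XPC encodes the protein that senses the distorted helix in nucleotide excision repair and hands the site to the repair machinery. It lies on the minus strand at chr3:14145147-14178621. Its level was 31.6, 33.7, 27.0 and 20.5 CPM in shPTBP1 and 29.5, 32.5, 39.3 and 21.8 in shControl. The groups overlapped almost entirely, with means of 28.2 ± 5.86 and 30.8 ± 7.26 CPM and a log2 fold change of -0.12 (SE 0.20). XPC-201 carried 93.7% ± 4.09 and 93.9% ± 2.86 of the counts. Of 33 genes of nucleotide excision repair, 25 were tested, of which DDB2 was called lower, none of the 23 that are no members was called, and none was called higher. The median log2 fold change of the list was -0.02, and 6 of its genes had an unadjusted p under 0.05.

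SESN1 encodes sestrin 1, a p53 target that restrains mTORC1 through the GATOR complexes. It lies on the minus strand at chr6:108984309-109094846. It had 0, 6, 1 and 1 counts in shPTBP1 and 11, 6, 7 and 6 in shControl. Replicate 2 of shPTBP1 equalled the lowest shControl count and the other 3 lay below all shControl libraries. The summed counts were 8 and 30, a ratio of 0.270 with an exact 95% interval of 0.107 to 0.603 for counting error, that is 3.70-fold lower. SESN1 was below the filter and was not tested. In the list of 15 sestrin and GATOR genes, 10 were tested and none was called by edgeR or by any alternative tool (3 had an unadjusted p under 0.05).

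ZMAT3, a zinc finger protein that binds RNA and is induced by p53, lies on the minus strand at chr3:178960121-179072215. It had 0, 0, 1 and 1 counts in shPTBP1 and 0, 0, 0 and 2 in shControl. With 2 counts in each group no difference could be detected at this depth.

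The wider set of p53 targets was read from a list of 45 direct targets, 7 of them members. Of 25 tested, 3 were called lower (CCNG1, DDB2 and FUCA1) and none higher, and the median log2 fold change was -0.12. An unadjusted p under 0.05 in edgeR was reached by 5 of the 25, and the share of all genes that reached it was not counted. The 38 targets that are no members gave 21 tested genes and 1 call, FUCA1, beside 3.19% of all genes called lower, so that no more is read from the list. FUCA1 encodes the lysosomal enzyme alpha-L-fucosidase. It had 59, 42, 60 and 60 counts in shPTBP1 and 174, 198, 163 and 194 in shControl, without overlap. Its mean level was 35.7 ± 5.41 against 116.5 ± 10.1 CPM, a log2 fold change of -1.70 (SE 0.12, adjusted p = 3.71e-06 in edgeR). Of the most widely used targets, 3 are given for their role, chosen after their values were seen. CDKN1A, which encodes the cell cycle inhibitor p21, was at 157 ± 7.49 and 177 ± 21.0 CPM, and BAX, which opens the mitochondrial membrane in apoptosis, at 54.3 ± 5.75 and 63.7 ± 7.85. PMAIP1, which encodes the apoptosis protein NOXA, was at 276 ± 27.6 and 298 ± 25.5 CPM. None of these 3 genes was called, and all 3 had the lower mean in shPTBP1. Other targets, also picked after their values were seen, went both ways and were not called. TRIAP1 (log2 fold change 0.28, SE 0.10) and DRAM1 (0.81, SE 0.43) were higher, and GADD45A (-0.79, SE 0.29) was lower.

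**Figure D4:**
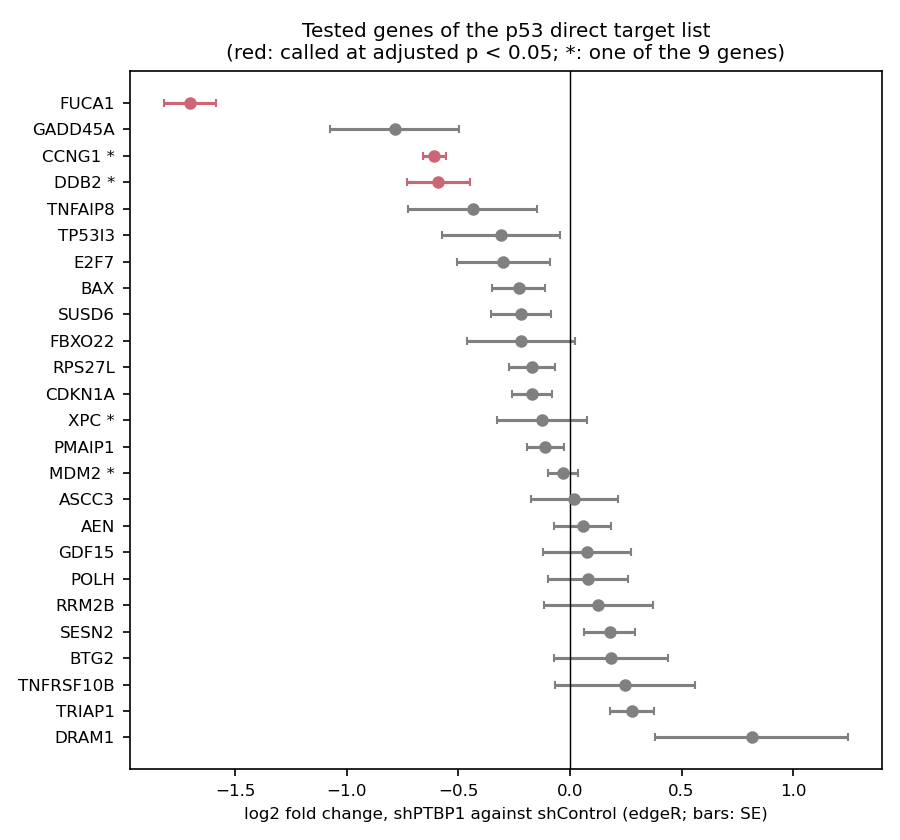
Log2 fold change (shPTBP1 against shControl) of the 25 tested genes in the list of p53 targets, with bars of 1 SE. Red marks the 3 called genes and an asterisk the members; FUCA1 at -1.70 lies apart, CCNG1 and DDB2 are near -0.6, and MDM2 is near 0.

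The promoters of the members were searched for the decamer that p53 binds as a pair, which reads the same on both strands. All 9 genes matched the RefSeq promoter table (GRCh38.p14), which holds 250 bases before to 50 after a start site, with 17 windows. The decamer was in 2 of these windows, against 6.63% of all 35116 windows, and a pair of decamers in 1 of them, against 0.308%. The pair belongs to DDB2, at chr11:47214979-47214999 on the plus strand, beginning at base 6 from a RefSeq start site. That start site is also where DDB2-201 begins in GENCODE (chr11:47214974). The decamer in a SESN1 window begins 49 bases before a start site, at chr6:109009018-109009047 on the minus strand with its flanks. This is not the start of SESN1-204, which held 25 of the 30 shControl counts of SESN1 and whose window has no decamer. The other 5 were counted on SESN1-202, which begins at chr6:109009555, outside the window with the decamer (chr6:109008939-109009238). Both matches are printed with capitals for the decamers.

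DDB2: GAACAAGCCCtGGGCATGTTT
SESN1: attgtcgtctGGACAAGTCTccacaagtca

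A match is a match of letters only, and binding was not measured in these libraries.

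Among the genes whose level over the 8 libraries was most like that of CCNG1 was PKM (Pearson's r of log2 CPM 0.990). Most like MDM2 were PDCD10 (0.943) and MRPS10 (0.927), and most like MDM4 were GLIPR1 (0.960) and PSMD11 (0.949). These values describe genes picked as the likest of 7597 over 8 libraries that share the contrast between the groups.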

How the data were processed

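RNA of 8 MOLM-13 cultures was analysed (4 shPTBP1, 4 shControl, taken from the sample labels). For nanopore cDNA reads the authors used minimap2 with hg38 as the reference, removed alignments of low mapping quality, and deposited whole-number transcript counts from StringTie. Tool versions and the annotation are not given in the sources used here. The deposited second table, named TPM, holds CPM values (largest difference from counts per 1000000 of 4.998e-07), without division by length. It served 1 alternative.

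Transcript counts were summed per gene with GENCODE version 44, which held 252562 of 254070 transcripts. The other 1508 took 0.0876 to 0.115% of the counts and were left out of gene counts. Reads of a short transcript inside a longer one, as for DDB2-209, depend on how StringTie divided them. Read truncation was not measured. The squared difference between replicates was on average 2.03 to 3.73 times the variance of counting, so none is a copy of another. Nothing beyond the labels says how independent the cultures were. The p values set the group difference against the spread between these samples only.

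Genes were tested with edgeR 4.0.16 (TMM, filterByExpr with a minimum count of 10, quasi-likelihood test, group as the only term, Benjamini-Hochberg adjusted p under 0.05). SE values are the log2 fold change over the square root of F. Isoform usage was tested with diffSpliceDGE (adjusted p under 0.05, change of mean share of at least 0.1). The scripts were tested on simulated data. The alternatives were DESeq2 1.42.0, limma 3.58.1 (voom, and trend on log2 CPM plus 1), DESeq2 size factors, no filter, thinning, a replicate block, and each library left out. Named were the 9 members, PTBP1, the called genes of each list, the 2 genes most like CCNG1, MDM2 and MDM4 (log2 CPM with prior count 2), and member isoforms with a mean share of at least 10%. Some items of this rule are not reported here. Other names were added after their values were seen. The members and lists were chosen with earlier results of these data known. Intervals, and the floor of 3 counts, hold only the error of counting. Molecules copied by PCR are not independent. R 4.3.3 and Python 3.11.15 were used.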

Additional observations from a re-analysis of the deposited data

Results flagged for a closer look

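In 34 groups of 4 values the sample farthest from the others was compared with the range of its group. Chance meets this rule in about 1 of 20 groups of independent, normally distributed values. The rule was met 7 times, which is not set against that rate. A lone count among libraries at 0 always meets it, and the shares of DDB2-201 and DDB2-209 mirror each other. CCNG1 was at 1351 CPM in shControl replicate 2 and at 1280.0 to 1288 in the other 3. CCNG2 was at 4.49 CPM in shControl replicate 4 and ZMAT3 at 1.28 CPM in the same library, both at 0 in the other 3. SESN1 was at 3.96 CPM in shPTBP1 replicate 2 and at 0 to 0.658 in the other 3. In that same shPTBP1 library the share of MDM4-209 was 0% (50 to 57.1% in the others), the share of DDB2-209 was 0% (31.9 to 33.7%) and the share of DDB2-201 was 98.5% (65.3 to 67.8%).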

How the results depend on the processing

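CCNG1 and FUCA1 were called lower in all 15 alternative fits, with log2 fold changes of -0.65 to -0.59 and -1.75 to -1.60. DDB2 (-0.70 to -0.50) was called in all 7 that kept every library and, with 1 library left out, in 2 of 8. MDM4 gave 0.31 to 0.77, and DESeq2 gave it no adjusted p. With 1 library left out MDM2 ranged from -0.061 to 0.014 and XPC from -0.26 to 0.013. MDM2 turned above 0 without shControl replicate 2 (0.014), and XPC without shPTBP1 replicate 4 (0.0022) or shControl replicate 3 (0.013). Of all genes, 242 were lower and 179 higher. DESeq2 gave 157 lower, and limma-trend 272 lower and 129 higher. With 1 library left out the counts were 107 to 190 and 77 to 168, and they moved by over 1.5 times without shPTBP1 replicate 2, 3 or 4 or shControl replicate 2 or 4. The cause was not tested. Among the p53 regulators 1 was lower with limma-voom, without a filter and with limma-trend, and 1 higher with DESeq2, without a filter and with limma-trend (0 to 1 in each direction with 1 library left out). The lower calls ranged from 1 to 2 in the cyclin G list and from 0 to 1 in nucleotide excision repair with 1 library left out, and the cyclin G list had 3 with limma-trend, the replicate block and thinning. Isoform calls were 61, with limma's diffSplice 155, with a change of share of at least 0.2 28, and 42 to 54 with 1 library left out. The share of whole exon 6 of MDM4 in shPTBP1 was 11.1 to 22.0% with 1 library left out and 35.4% without MDM4-209.

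No shared effect of the replicate number was seen in the gene levels. The labels do not say whether same-numbered cultures were handled together. Same-numbered libraries correlated at -0.0328 to 0.00889 after removal of the group means. A fit with a block for the replicate number called 186 genes lower, 137 genes higher and 52 isoforms, and CCNG1 and DDB2 stayed called. The share among transcripts past the filter could not be given for CCNG1, MDM2 and MDM4. Low counts limit MDM4, CCNG2, SESN1, PPM1D and ZMAT3.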

Other observations

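HIPK2, a kinase that phosphorylates p53, had 0, 0, 5 and 57 counts in shPTBP1 and 58, 48, 70 and 54 in shControl. Its mean levels were 9.95 ± 17.8 and 36.9 ± 6.89 CPM and it was not called (adjusted p = 0.162 in edgeR). SESN3, a relative of SESN1, had 196, 903, 115 and 120 counts in shPTBP1 and 136, 613, 94 and 584 in shControl, so that libraries of the same group differed more than the groups did. Both were picked after their values were seen.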
